A study of Mus musculus with 15 samples.

Results

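Interferon-stimulated genes are the genes that cells switch on after type I, type II or type III interferon. The set described here held 39 mouse genes, chosen by name: the 3 IFITM genes Ifitm1, Ifitm2 and Ifitm3, and 36 genes with roles in RNA sensing, RNA decay, viral restriction, ISG15 conjugation and transcription. All 39 were found among the 43629 genes of the count table, and 38 were in the FPKM table, in which a value is the number of sequenced fragments scaled to the length of the transcript and to the size of the library.

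The genes were measured by RNA sequencing of polyA RNA from cultured mouse intestinal organoids, epithelial structures grown in gel from the proximal small intestine of animals on a mixed C57B6/129 background. WT comprised 5 libraries: 4 APC flox/flox lines, numbered 1, 2, 5 and 6, and 1 Dox naive culture, and all 5 were grown in ENR medium, which contains EGF, Noggin and R-spondin. Apc comprised 4 libraries of Apc delta/delta organoids carrying the same line numbers, grown in EN medium without R-spondin. P-Rspo3 comprised 4 libraries of Ptprk-Rspo3 organoids, labelled 15d, 4d, M and F, in which dox-induced Cas9 had fused Ptprk to Rspo3, also grown in EN medium. The study describes the outgrowth of P-Rspo3 organoids without R-spondin as polyclonal. Neither the animal of origin nor the sequencing batch of each library is given in the sources used here. P-values therefore measure the spread between libraries, which may be partly technical. Genotype and medium changed together between WT and each of the other groups and cannot be told apart in those comparisons, whereas Apc and P-Rspo3 shared the EN medium. A further 2 libraries, whose labels could not be reconciled, joined no group. The total count per grouped library ran from 28902729 to 35528495. Rspo3 was at 6.26 to 11.5 FPKM in the P-Rspo3 libraries and at most 0.0112 in WT. The FPKM of Apc was 29.4 ± 1.03 (SD, n = 4) in Apc and 14.5 ± 4.47 (SD, n = 5) in WT, but a value for the whole gene also covers exons outside the deleted segment and so does not check that genotype.

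Type I and type III interferons bind their receptors on epithelial cells and act through the kinases Jak1 and Tyk2 on STAT proteins, among them Stat2, which joins Irf9 in the ISGF3 complex. This complex binds the interferon-stimulated response element (ISRE), while interferon gamma acts largely through the GAS element. IFITM proteins sit in cell membranes and hinder the fusion of enveloped viruses with the cell, and some members of the family have also been described as Wnt target genes in the intestine.

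The promoters at RefSeq starts differed among the IFITM genes. The 5 stretches of reference sequence below set the 3 IFITM genes, which rose in Apc organoids, beside Isg15 and Ifit3, which fell. The sequences are from RefSeq on GRCm38.p6 and are written 5′ to 3′ on the strand of the gene, with capitals marking each match to the core of the ISRE, searched as TTTCNNTTTC on both strands.

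Ifitm1: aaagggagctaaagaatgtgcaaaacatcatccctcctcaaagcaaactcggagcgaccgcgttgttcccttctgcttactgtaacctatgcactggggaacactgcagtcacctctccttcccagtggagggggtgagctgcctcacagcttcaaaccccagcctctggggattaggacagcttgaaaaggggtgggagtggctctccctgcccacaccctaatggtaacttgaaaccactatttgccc
Ifitm2: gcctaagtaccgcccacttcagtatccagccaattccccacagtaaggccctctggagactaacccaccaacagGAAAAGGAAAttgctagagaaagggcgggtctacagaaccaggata
Ifitm3: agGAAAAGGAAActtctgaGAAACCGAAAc
Isg15: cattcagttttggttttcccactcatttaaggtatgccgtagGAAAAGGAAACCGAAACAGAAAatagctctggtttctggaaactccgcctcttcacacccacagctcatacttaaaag
Ifit3: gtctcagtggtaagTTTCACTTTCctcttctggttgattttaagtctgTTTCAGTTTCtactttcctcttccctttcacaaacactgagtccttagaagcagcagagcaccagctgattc

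Starts are those of RefSeq. The Ifitm1 stretch is the 250 bases before its start (chr7:140967826-140968075, plus strand) and the Ifitm2 stretch the 120 bases before its own (chr7:140955962-140956081, minus strand). The Ifitm1 stretch lies inside the gene as counted, which begins at chr7:140967221, and the bases before that position were not searched. The Ifitm3 stretch is the first 30 transcribed bases by the RefSeq start (chr7:141010715-141010744, minus strand). For Isg15 the stretch covers 120 bases before the start (chr4:156200819-156200938, minus strand), and for Ifit3 it covers 120 bases that end 50 bases before the start (chr19:34583359-34583478, plus strand). In windows from 250 bases before to 50 bases after each RefSeq start, Ifitm1 held no match, Ifitm2 held 1 and Ifitm3 held 2. Isg15 held 3, of which neighbouring matches overlap. Of the 30 members with a RefSeq promoter, 15 held at least 1 match, against 3.99% of all 27025 genes with a promoter. Among members that fell in Apc organoids 5 of 8 held a match, and among those that rose 2 of 4 did. Of the members tested but not called 5 of 14 did, and of those not tested 3 of 4. The GAS core, searched as TTCNNNGAA, which reads the same on both strands, lay in 8 of the 30 (26.7%) and in 9.55% of all genes. Ifitm3 was the only IFITM member among the 8, and its GAS match overlapped its second ISRE match. None of the 30 held the TCF/LEF core CTTTGAT on either strand, which 4.29% of all genes did. Ifitm5, a family member outside the set that also rose in Apc, held 1 match, 164 bases before its start. A match is a string of letters and not a measured binding site, and its absence says only that these letters are not in the window.

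Deletion of Apc was accompanied by opposite changes within the set. All 3 IFITM members rose, with Ifitm1 going from near 0 to one of the most abundant transcripts of the organoids, while 11 of the other 31 members tested fell and 1 rose, beside 14.1% of all genes tested that fell and 12.2% that rose. The sensors Ifih1 and Dhx58, the ubiquitin-like modifier Isg15, the transcription factor Irf7 and the effectors Ifit1, Ifit3, Oas1a and Oasl2 were among those that fell, with log2 fold changes of -2.77 to -1.495. With a replicate block for the line number 8 members fell and not 11, since Ifit1, Oasl2 and Isg15 no longer passed (adjusted p = 0.069, 0.071 and 0.1), and these 3 were higher in Apc 6 than in WT 6. Under the block 5 members rose and not 4, since Zbp1 passed. In P-Rspo3 organoids no member passed the thresholds in either direction, beside 0.00625% of all genes called higher and 0% called lower.

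Ifitm1 lies on chr7:140967221-140969825 (GRCm38, plus strand), between Ifitm2 (chr7:140954837-140955987, minus strand) and Ifitm3 (chr7:141009586-141010770, minus strand). In WT lines 1, 2, 5 and 6 and the naive culture its FPKM was 0.207, 0.248, 0.0743, 0.237 and 0.0393. In Apc lines 1, 2, 5 and 6 it was 672, 1008, 921 and 634. In P-Rspo3 15d, 4d, M and F it was 0.203, 0.875, 0 and 0. The Apc libraries were therefore far above all 9 others, which overlapped one another. These values rested on 1 to 12 counts in WT, on 12110 to 16526 counts in Apc and on 0 to 13 counts in P-Rspo3. The log2 fold change between Apc and WT was 10.91 ± 0.30 (SE), with an adjusted p of 2.6e-09 in the quasi-likelihood test of edgeR after adjustment by Benjamini-Hochberg, which also gives the adjusted p-values that follow. It ranked 8 among the 16749 genes tested, counting from the largest increase, and because WT was at so few counts its size depends on the prior count of the fit.

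Ifitm2 was already abundant in WT, at 193, 181, 141, 210 and 146 FPKM in lines 1, 2, 5, 6 and the naive culture. Its FPKM in Apc lines 1, 2, 5 and 6 was 546, 605, 671 and 695. Its FPKM in P-Rspo3 15d, 4d, M and F was 194, 158, 187 and 112. No Apc library overlapped WT, and 3 of the 4 P-Rspo3 libraries lay within the WT range. The log2 fold change in Apc was 1.56 ± 0.11 (SE, adjusted p = 7.4e-07), or 2.95-fold, the smallest of the 3 IFITM increases.

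Ifitm3, the member best known for restricting influenza virus, had 61.9, 77.2, 41.9, 63.9 and 53.2 FPKM in WT lines 1, 2, 5, 6 and the naive culture. In Apc lines 1, 2, 5 and 6 its FPKM was 1220, 1368.5, 979 and 1193. The P-Rspo3 libraries 4d, M and F had 24.4, 33.8 and 42.1 FPKM, and in 15d the gene was listed at 0. Every Apc library stood above every other library, and the log2 fold change over WT was 4.04 ± 0.16 (SE, adjusted p = 2.3e-08), or 16.4-fold. The 15d library also held 0 counts of Ifitm3, against 477 to 1467 counts in the other 8 WT and P-Rspo3 libraries, while its Ifitm2 count of 3554 was the highest of the P-Rspo3 group. Across the WT, P-Rspo3 and ungrouped libraries, 7908 genes had at least 400 counts in all libraries other than 15d. Of these genes, Ifitm3 and Pitx1 had at most 3 counts in 15d, whereas none of the 10 other libraries lacked a gene in this way, a count made after the value of Ifitm3 had been seen. The log2 fold change of Ifitm3 between P-Rspo3 and WT was -1.24 ± 0.80 (SE, adjusted p = 0.54), and without 15d it was -0.82 (adjusted p = 0.24). Among the P-Rspo3 libraries only F reached the lower end of the WT range.

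**Figure D1:**
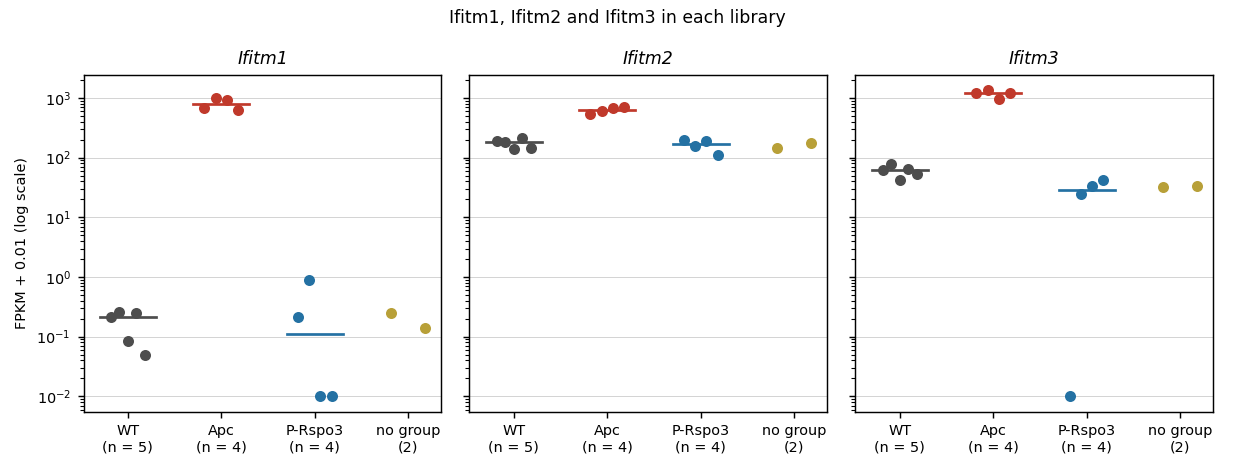
FPKM of Ifitm1, Ifitm2 and Ifitm3 in each library, with 0.01 added so that values of 0 can be drawn on the log axis; points are libraries and bars are group medians, and the 2 libraries without a group have no bar. All 4 Apc libraries lie above every other library for the 3 genes, and the point at the foot of the Ifitm3 panel is P-Rspo3 15d.

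The order of the 3 genes changed between groups. In WT the mean FPKM was 174 ± 30.1 for Ifitm2, 59.6 ± 13.1 for Ifitm3 and 0.161 ± 0.0970 for Ifitm1 (SD, n = 5), and the ranges of the 3 genes did not overlap. In Apc it was 1190 ± 161 for Ifitm3, 809 ± 184 for Ifitm1 and 629 ± 67.2 for Ifitm2 (SD, n = 4), where Ifitm1 overlapped both neighbours in the order. By mean FPKM, Ifitm3 ranked 50, Ifitm1 79 and Ifitm2 113 among the 43437 genes of the FPKM table in Apc. By mean FPKM the order in P-Rspo3 was that of WT, with Ifitm2 at 163 ± 37.3, Ifitm3 at 25.1 ± 18.2 and Ifitm1 at 0.269 ± 0.415 (SD, n = 4), where Ifitm1 and Ifitm3 overlapped through 15d.

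Summed over the 3 genes, IFITM transcripts stood at 183 to 274 FPKM in WT, 154 to 220 in P-Rspo3 and 2438 to 2981 in Apc. The summed FPKM of the remaining members in the table was 243 to 312 in WT, 243 to 271 in P-Rspo3 and 281 to 320.5 in Apc, so WT overlapped both other groups while Apc lay above P-Rspo3. Lgals3bp, a secreted glycoprotein, was the most abundant of these members. Without it the sum was 114 to 190 in WT, 122 to 167 in P-Rspo3 and 107 to 144 in Apc, and all groups overlapped. IFITM genes thus made up 36.9% to 53.0% of the FPKM of the set in WT, 36.2% to 46.3% in P-Rspo3 and 88.9% to 90.7% in Apc. These shares are descriptions of the libraries and were not tested.

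Of the 39 members, 34 passed the filter on low values for the comparison of Apc with WT, an FPKM of at least 0.1 in 4 or more libraries. A member was called when its log2 fold change was beyond 1 in either direction and its adjusted p was under 0.05. With these thresholds 4 members rose and 11 fell, which is 11.8% and 32.4% of those tested, beside 12.2% of all 16749 genes called higher and 14.1% called lower. The median log2 fold change was -0.68 over the 34 members tested and -0.73 over the 31 that are not IFITM genes, while that of all genes tested was 0.00. A gene that passed the filter only through the group in which it was high could hardly be called in the other direction. Ifit3 and Sp100, among the 11 that fell, passed through WT, and Ifitm1 passed through Apc. These shares therefore describe the members that passed and not the whole set. With limma on log2(FPKM + 1), 5.88% of the members were called lower, beside 6.76% of all genes, so on that scale the share of members that fell was no larger than that of all genes. With 1 FPKM added, however, Ifit3 and Sp100, at means of 0.348 and 0.226 FPKM in WT, could not reach the fold threshold even at 0 in Apc. That scale therefore cannot decide whether such low members fell, and the same holds for low genes among all those tested. In bulk RNA, fewer cells that express a gene and less of its RNA per cell cannot be told apart.

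**Figure D2:**
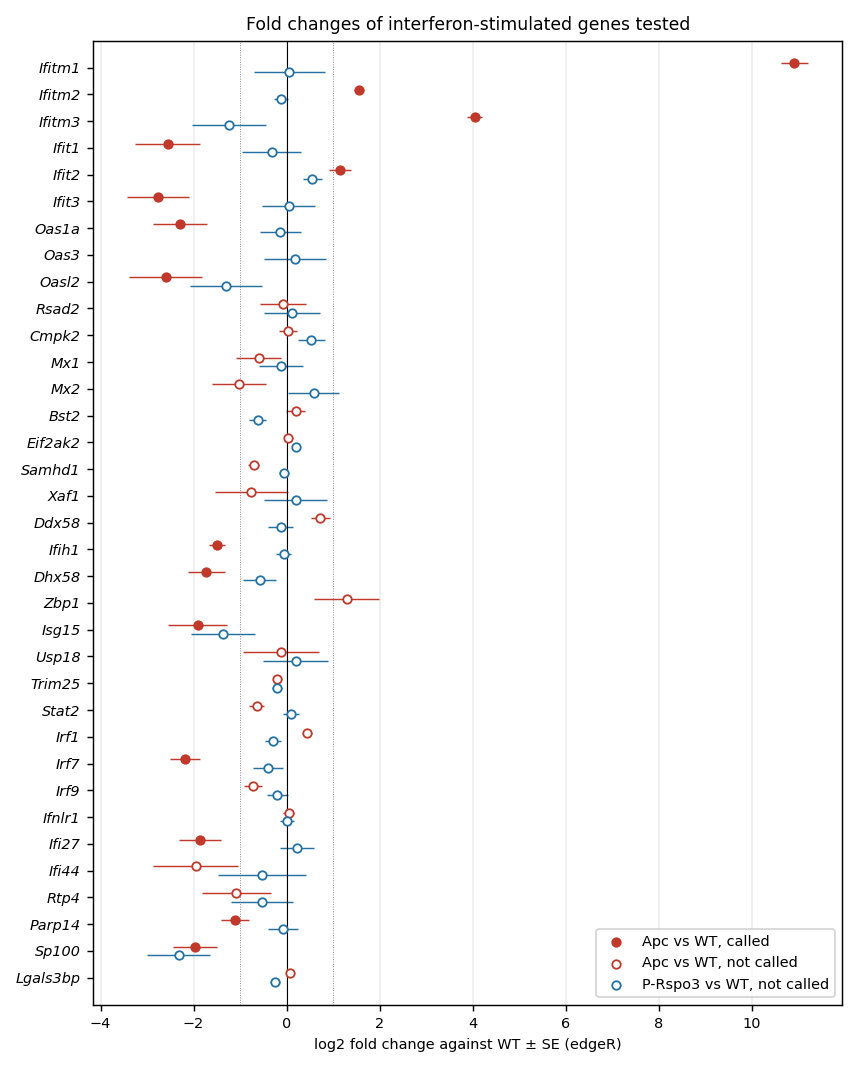
Log2 fold change against WT with its standard error (edgeR) for each of the 35 members tested in at least 1 comparison, Apc in red and P-Rspo3 in blue; filled points were called and dotted lines mark an absolute log2 fold change of 1. The IFITM genes and Ifit2 lie to the right in Apc, 11 members are called to the left, and no P-Rspo3 point is filled.

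The IFIT genes, whose products bind foreign RNA and block its translation, lie close together on chromosome 19, and their calls differed in direction. Ifit1 (chr19:34640871-34650009, plus strand) had 0.686, 2.12, 3.02, 0.205 and 1.62 FPKM in WT lines 1, 2, 5, 6 and the naive culture. In Apc lines 1, 2, 5 and 6 it had 0.186, 0.232, 0.234 and 0.619 FPKM. In P-Rspo3 15d, 4d, M and F it had 1.58, 1.29, 0.428 and 1.58 FPKM. Only WT line 6 lay within the Apc range, and the log2 fold change was -2.56 ± 0.70 (SE, adjusted p = 0.0087). With this replicate block the change was -2.25 and no longer passed (adjusted p = 0.069), and Apc 6 was above WT 6.

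Ifit3 (chr19:34583531-34588731, plus strand) had 0.113, 0.388, 0.619, 0.0916 and 0.529 FPKM in the 5 WT libraries, in the same order. Its FPKM was 0.0342, 0.0257, 0.0844 and 0.113 in Apc lines 1, 2, 5 and 6. It was 0.521, 0.340, 0.139 and 0.476 in P-Rspo3 15d, 4d, M and F. The fall in Apc was -2.77 ± 0.66 on the log2 scale (SE, adjusted p = 0.0040), on 2 to 10 counts per Apc library, and only WT line 6 lay within the Apc range. Ifit3 reached 0.1 FPKM in all WT libraries but line 6, and in Apc only in line 6. It thus passed the filter through WT and could hardly have been called higher. Reads of Ifit3 can also match its near-identical neighbour Ifit3b, so the value is uncertain to that extent.

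Ifit2 (chr19:34550694-34576419, plus strand) went the other way. It had 0.554, 0.581, 0.444, 0.587 and 0.699 FPKM in the WT libraries, and 1.17, 1.26, 2.23 and 1.73 FPKM in Apc lines 1, 2, 5 and 6. The P-Rspo3 libraries 15d, 4d, M and F had 1.04, 0.915, 0.792 and 0.638 FPKM. Apc did not overlap WT, and the log2 fold change was 1.15 ± 0.24 (SE, adjusted p = 0.0018). Without Apc line 5 it was 0.89, below the fold threshold. Ifit2 was the only member outside the IFITM genes called higher in Apc.

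Among the enzymes of the 2-5A pathway, which make the second messenger that activates RNase L, Oas1a and its relative Oasl2 fell. Oas1a (chr5:120896256-120907521, minus strand) had 0.845, 1.74, 2.10, 0.944 and 2.57 FPKM in WT lines 1, 2, 5, 6 and the naive culture. It had 0.142, 0.132, 0.685 and 0.731 FPKM in Apc lines 1, 2, 5 and 6, below every WT library, and 2.97, 0.813, 1.33 and 1.15 in P-Rspo3 15d, 4d, M and F. The log2 fold change in Apc was -2.29 ± 0.58 (SE, adjusted p = 0.0056), and reads of the similar gene Oas1g may be shared with it.

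Oasl2 (chr5:114896936-114912234, plus strand) had 0.530, 2.36, 4.72, 0.482 and 2.72 FPKM in the WT libraries, in which lines 1 and 6 were again lowest. In Apc lines 1, 2, 5 and 6 it had 0.283, 0.310, 0.901 and 0.605 FPKM, and in P-Rspo3 15d, 4d, M and F it had 0.931, 0.326, 0.516 and 2.19. WT and Apc overlapped, with a log2 fold change of -2.60 ± 0.78 (SE, adjusted p = 0.014). The blocked fit gave -1.94 for Oasl2 and an adjusted p of 0.071. The antiviral enzyme Rsad2 and its neighbour Cmpk2, a nucleotide kinase, had log2 fold changes of -0.08 and 0.02 and were not called (adjusted p = 0.92 and 0.94). Oas2 and Oas3, at no more than 0.275 FPKM in any grouped library, were below the FPKM filter in both comparisons of Apc. Without the filter neither was called against WT (adjusted p = 0.15 and 0.1). Against P-Rspo3 Oas2 was then called lower (adjusted p = 0.029), on 0 to 2 counts in Apc and 3 to 7 in P-Rspo3, and Oas3 was not (adjusted p = 0.084). When P-Rspo3 M was left out Oas3 passed the filter and was called lower (-1.98, adjusted p = 0.022).

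Of the 4 nucleic acid sensors 2 were called lower in Apc than in WT and none higher, beside 14.1% and 12.2% of all genes. Ifih1 (MDA5, chr2:62595798-62646255, minus strand), which senses long double-stranded RNA, had 5.22, 6.31, 8.59, 5.38 and 6.21 FPKM in WT lines 1, 2, 5, 6 and the naive culture. It had 2.56, 2.22, 3.15 and 3.03 FPKM in Apc lines 1, 2, 5 and 6, and 5.62, 6.35, 4.83 and 6.66 in P-Rspo3 15d, 4d, M and F. Apc lay below all WT and all P-Rspo3 libraries, with a log2 fold change against WT of -1.495 ± 0.17 (SE, adjusted p = 2.9e-05), the smallest adjusted p among the members that fell.

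Dhx58 (LGP2, chr11:100694884-100704271, minus strand), which modulates Ifih1 and Ddx58, had 0.858, 1.42, 1.89, 0.975 and 1.39 FPKM in WT and 0.871, 0.380, 0.668 and 1.13 in Apc lines 1, 2, 5 and 6. P-Rspo3 15d, 4d, M and F had 1.71, 1.13, 0.956 and 1.56 FPKM. These groups overlapped in FPKM, and on counts the log2 fold change in Apc was -1.73 ± 0.40 (SE, adjusted p = 0.0033). With limma Dhx58 was at -0.39 on log2(FPKM + 1) and -0.74 on log2(FPKM + 0.1), and was not called (adjusted p = 0.056 and 0.061). The antisense gene Dhx58os overlaps Dhx58, and without a stated strand setting reads of the pair cannot be separated. Ddx58 (RIG-I), the sensor of short RNA with a 5′ triphosphate, had a mean of 3.39 ± 0.915 FPKM in WT (SD, n = 5) and 6.99 ± 1.11 in Apc (SD, n = 4), and its log2 fold change of 0.72 ± 0.21 passed the adjusted p (0.011) but not the fold threshold. Zbp1, a sensor of Z-form nucleic acids, had 0.0745 ± 0.0597 FPKM in WT and 0.300 ± 0.160 in Apc, with a log2 fold change of 1.29 that did not pass (adjusted p = 0.14). It was higher in Apc in 4 of 4 lines of the same number, and it passed with a replicate block for the line number (1.62, adjusted p = 0.041), without WT 5 (2.06, adjusted p = 0.028) and with limma on log2(FPKM + 0.1) (1.13, adjusted p = 0.026). With limma on log2(FPKM + 1) it was short of the fold threshold (0.27, adjusted p = 0.022). No other alternative called Zbp1, with adjusted p = 0.2 by DESeq2 and 0.31 by edgeR without Apc 5. Its counts were 1 to 13 in WT and 4 to 25 in Apc.

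Isg15 (chr4:156199424-156200818, minus strand), a ubiquitin-like protein attached to new proteins during infection, had 0.655, 1.47, 3.71, 0.353 and 2.24 FPKM in WT lines 1, 2, 5, 6 and the naive culture. It had 0.352, 0.429, 0.480 and 0.757 FPKM in Apc lines 1, 2, 5 and 6, and 0.490, 0.534, 0.278 and 1.26 in P-Rspo3 15d, 4d, M and F. The 3 groups overlapped. The log2 fold change in Apc was -1.91 ± 0.63 (SE, adjusted p = 0.023). The call rested on few libraries: leaving out WT 5, Apc 1, Apc 2 or Apc 5 each gave an adjusted p of 0.052 to 0.062, and the blocked fit gave -1.40 with an adjusted p of 0.1. Its deconjugating enzyme Usp18 and the ligase Trim25 were not called, with log2 fold changes of -0.13 and -0.20.

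Irf7 (chr7:141262706-141266481, minus strand), which amplifies type I interferon production, had 8.49, 9.04, 16.2, 4.66 and 11.4 FPKM in WT lines 1, 2, 5, 6 and the naive culture. In Apc lines 1, 2, 5 and 6 it had 2.41, 2.77, 3.21 and 4.36 FPKM. In P-Rspo3 15d, 4d, M and F it had 8.41, 7.36, 7.23 and 14.4 FPKM. All Apc libraries lay below all WT libraries and the log2 fold change was -2.19 ± 0.33 (SE, adjusted p = 0.00017). Phrf1 overlaps Irf7 on the other strand, and Rnf31 overlaps Irf9 on the same one. Stat2 and Irf9, components of ISGF3, had log2 fold changes of -0.65 (adjusted p = 0.0064) and -0.73 (adjusted p = 0.0077), and Irf1, the factor most tied to interferon gamma, had 0.44 (adjusted p = 0.0057). These 3 passed the adjusted p but not the fold threshold. Irf8 was missing from the FPKM table and so entered no fit with the filter, although it had 1963 to 2628 counts in WT, 1307 to 1731 in Apc and 1570 to 2459 in P-Rspo3. Its log2 fold change without the filter was -0.97 ± 0.11 in Apc (SE, adjusted p = 6.6e-06), also short of the fold threshold.

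Ifi27 (chr12:103434211-103440239, plus strand), a mitochondrial protein, had 8.45, 21.1, 21.0, 4.88 and 15.4 FPKM in WT lines 1, 2, 5, 6 and the naive culture. It had 2.43, 3.999, 8.31 and 4.33 FPKM in Apc lines 1, 2, 5 and 6, and 19.1, 13.0, 16.4 and 17.5 in P-Rspo3 15d, 4d, M and F. WT line 6 lay within the Apc range, and all P-Rspo3 libraries lay above it. The log2 fold change in Apc was -1.87 ± 0.45 (SE, adjusted p = 0.0040).

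Parp14 (chr16:35832874-35871544, minus strand), an ADP-ribosyltransferase, had 1.42, 2.76, 3.56, 1.40 and 2.25 FPKM in WT and 1.08, 0.962, 1.55 and 1.58 in Apc lines 1, 2, 5 and 6. P-Rspo3 15d, 4d, M and F had 2.71, 2.14, 1.21 and 2.67 FPKM. WT lines 1 and 6 overlapped Apc, and the log2 fold change of -1.11 ± 0.30 (SE, adjusted p = 0.0082) was close to the fold threshold. Without WT 5 it was -0.88 and without Apc 2 it was -0.99.

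Sp100 (chr1:85649988-85709998, plus strand), a component of nuclear bodies, was at most 0.343 FPKM and 22 counts in any grouped library. Its FPKM was 0.140, 0.236, 0.198, 0.214 and 0.343 in WT and 0.0397, 0.219, 0.0574 and 0.0234 in Apc lines 1, 2, 5 and 6. P-Rspo3 15d, 4d, M and F had 0, 0.0269, 0.240 and 0.0468 FPKM. WT and Apc overlapped through Apc 2, at a log2 fold change of -1.97 ± 0.46 (SE, adjusted p = 0.0037). Sp100 reached 0.1 FPKM in every WT library and in Apc only in Apc 2, so it passed the filter through WT and could hardly have been called higher. With filterByExpr, another filter, it was removed before the test and so could not be called. With limma it was -0.18 on log2(FPKM + 1), a scale on which its WT level could not reach the fold threshold. On log2(FPKM + 0.1) it was -0.90, short of that threshold.

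The remaining members tested in Apc showed small or uneven differences. Samhd1, which depletes nucleotides that viruses need, had 37.8 ± 3.40 FPKM in WT and 25.7 ± 4.42 in Apc, with a log2 fold change of -0.71 (adjusted p = 0.00040) short of the fold threshold. Bst2, which tethers budding virions, and Eif2ak2 (PKR), which halts translation, had log2 fold changes of 0.19 and 0.03 and were not called. Neither were the GTPases Mx1 (-0.61) and Mx2 (-1.02), the apoptosis factor Xaf1 (-0.76), the interferon lambda receptor Ifnlr1 (0.04), Ifi44 (-1.96), the chaperone Rtp4 (-1.08) or Lgals3bp (0.07), whose adjusted p-values ran from 0.087 to 0.78. Lgals3bp was the most abundant member outside the IFITM genes, at 133 ± 12.8 FPKM in WT and 179 ± 4.24 in Apc, but its change on TMM-scaled counts was small. The FPKM scale itself was shifted between the groups, since the median of all genes tested was higher in Apc than in WT by 0.17 on log2(FPKM + 1) and by 0.28 on log2(FPKM + 0.1), while on counts it was 0.00. Gbp2 and Gbp3, guanylate-binding proteins, had at most 9 counts in any grouped library and were below the FPKM filter. Without the filter Gbp2 was called higher in Apc than in WT (adjusted p = 0.0076), on 2 to 4 counts in each Apc library and 0 in each WT library, and Gbp3 was not called (adjusted p = 0.06).

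Each Apc library was also set against the WT library that carries the same number, taken from the titles to mark the same line. Ifitm1, Ifitm2, Ifitm3 and Ifit2 had a higher CPM (counts scaled to library size with TMM factors) in Apc than in WT in 4 of 4 lines. The log2 ratio of Ifitm3 was 4.08, 3.89, 4.20 and 3.98 in lines 1, 2, 5 and 6, and that of Ifitm2 was 1.27, 1.47, 1.89 and 1.47. For Ifitm1 it was 10.91, 10.85, 13.46 and 9.70, where the spread comes from 1 to 12 WT counts. Of the 11 members that fell, 8 were lower in 4 of 4 lines. Ifit1, Oasl2 and Isg15 were lower in lines 1, 2 and 5 and higher in line 6, by 1.29, 0.77 and 0.90. The called members were chosen by their difference between Apc and WT in these same libraries. Their agreement between lines is therefore a description and not a separate test.

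**Figure D3:**
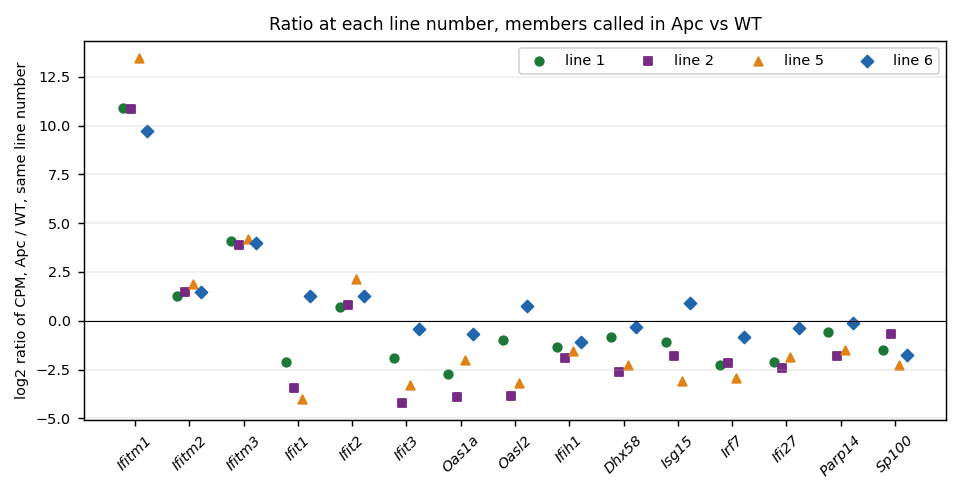
Log2 ratio of TMM-scaled CPM between the Apc and the WT library of the same line number, for the 15 members called in Apc, with 1 point per line. Ifitm2 and Ifitm3 vary little between lines, while line 6 (diamonds) lies nearest to 0 or above it for most members that fell.

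The members that fell also varied among WT libraries. Relative to the WT mean, the median of the 11 on log2(CPM + 0.5) was -0.67 in line 1, 0.22 in line 2, 0.74 in line 5, -0.71 in line 6 and 0.45 in the naive culture. In Apc lines 1, 2, 5 and 6 it was -1.54, -1.65, -1.14 and -1.0. In P-Rspo3 15d, 4d, M and F it was 0.01, -0.49, -0.65 and 0.23, inside the WT range. These genes were chosen by their difference between Apc and WT, so the distance between those groups is a description. For all 31 tested members that are not IFITM genes, the median was -0.61 to -0.18 in Apc and -0.43 to 0.46 in WT, and the groups overlapped. IFITM genes did not share this order among WT libraries, since lines 1 and 6 had the highest Ifitm2 values and not the lowest.

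**Figure D4:**
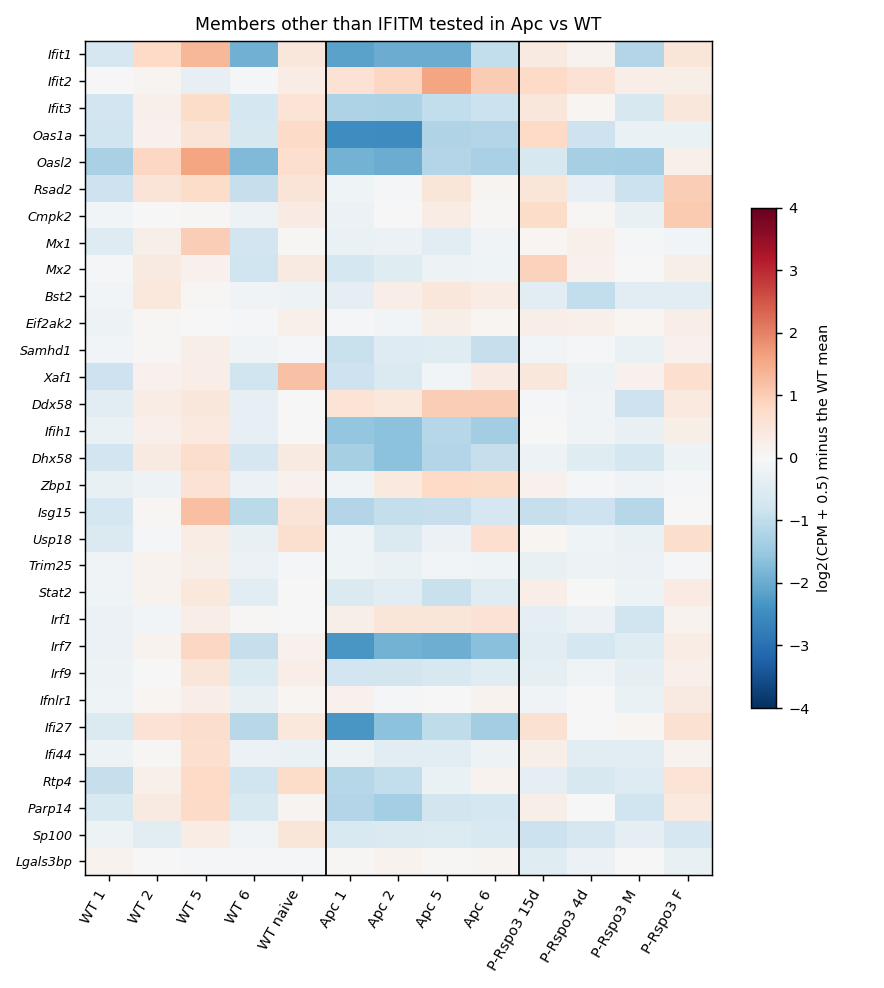
TMM-scaled log2(CPM + 0.5) minus the WT mean for the 31 members other than IFITM genes tested in Apc vs WT, by library, with black lines between WT, Apc and P-Rspo3. Libraries WT 1 and WT 6 are blue for many of the genes that are blue in Apc, such as Ifit1, Oasl2 and Isg15.

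Other pathway genes, from lists that are separate from the 39, were examined to place these changes. All 21 interferon ligand genes had at most 3 counts in each of the 13 grouped libraries, and 15 of them had 0 throughout, so interferon transcripts were not detectable at this depth. Of 10 receptor and JAK-STAT genes, 2 fell in Apc and none rose, which with 10 genes is near the 14.1% and 12.2% of all genes called. Ifngr1, the ligand-binding chain of the interferon gamma receptor, changed by -2.07 ± 0.12 (SE, adjusted p = 2e-07), from 116 ± 18.4 FPKM in WT to 32.5 ± 3.40 in Apc. Il10rb, which pairs with Ifnlr1, changed by -1.32 (adjusted p = 5.8e-07). Ifnar1, a chain of the type I interferon receptor, had a log2 fold change of 0.14 (adjusted p = 0.20).

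Among 10 tested genes of the induction pathway 2 rose and 2 fell, again near those shares. Tmem173 (STING), the adaptor downstream of cytosolic DNA sensing, rose from 1.22 ± 0.245 FPKM in WT to 18.9 ± 2.72 in Apc, a log2 fold change of 3.66 ± 0.15 (SE, adjusted p = 2.1e-08). Irf5 rose by 2.001 and Ticam1, the adaptor of Tlr3, fell by 1.89 on the log2 scale. Of 10 negative regulators 2 rose and 2 fell, also near them, with Cish at 1.36, Socs1 at 1.34 and Irf2 at -1.16. In a longer list of 73 further interferon-stimulated genes, 52 were tested, 3 rose (5.77%, beside 12.2% of all genes) and 16 fell (30.8%, beside 14.1%), with a median log2 fold change of -0.51. Ifit1bl2, a relative of Ifit1, had the largest of these changes at -6.77 ± 0.24 (SE, adjusted p = 1.1e-08), followed by Oasl1 at -2.55 and Apol9a at -2.39.

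Of the tested genes around the cluster, those called higher were all IFITM family members. Of the 19 protein-coding genes that reach within 100 kb of the cluster on chromosome 7, 15 were tested, and the 5 that rose were Ifitm1, Ifitm2, Ifitm3, Ifitm5 and Ifitm6. Ifitm5, a gene of bone-forming cells, had 0.456 ± 0.145 FPKM in WT (SD, n = 5) and 2.19 ± 0.407 in Apc (SD, n = 4), with a log2 fold change of 1.99 ± 0.25 (SE, adjusted p = 5.7e-05). Gm45717 overlaps both Ifitm5 and Ifitm2 on the same strand and was not among the genes counted. Reads of Gm45717 cannot be separated from those of Ifitm5 and Ifitm2, so both values are uncertain to that extent. Ifitm6 had 0 to 3 counts in WT and 12 to 31 in Apc, with a log2 fold change of 3.44 ± 0.54 (SE, adjusted p = 0.00024). Ifitm1 and Ifitm6 passed the FPKM filter through Apc and could hardly have been called lower. Of the 10 other genes tested 3 fell and none rose, beside 14.1% of all genes called lower and 12.2% called higher. Nlrp6, a sensor of the inflammasome, changed by -2.15 ± 0.15 (SE, adjusted p = 6.7e-07), Sirt3, a mitochondrial deacetylase, by -1.11 and Ano9 by -1.10. Pgghg, between Nlrp6 and Ifitm5, had a log2 fold change of 0.42 ± 0.10 (SE, adjusted p = 0.0043), which passed the adjusted p but not the fold threshold, and Psmd13 one of -0.02. Ifitm7 and Ifitm10, which lie outside this window, had at most 6 counts in any grouped library.

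**Figure D5:**
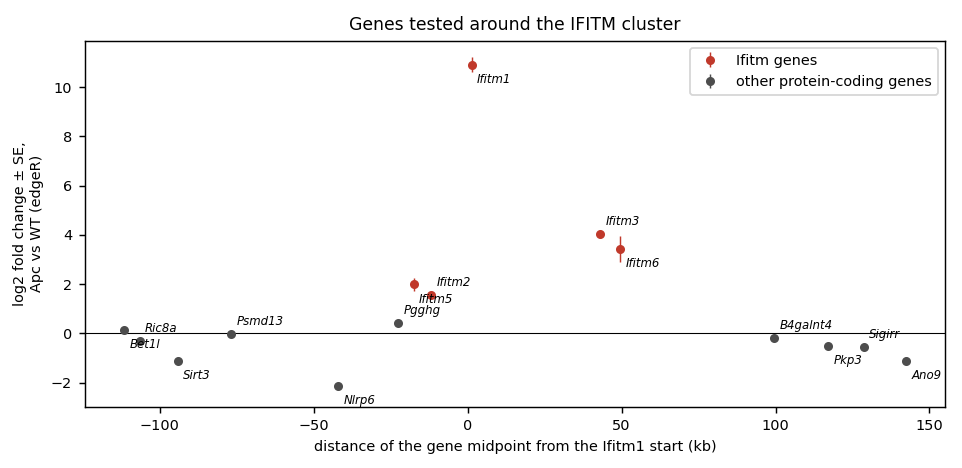
Log2 fold change between Apc and WT with its standard error (edgeR) for the 15 tested protein-coding genes around the IFITM cluster, against the distance of the gene midpoint from the start of Ifitm1. The 5 Ifitm genes (red) lie between 1.56 and 10.91, and the 10 other genes (grey) between -2.15 and 0.42.

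Markers of the cells an organoid can hold were read beside these results. Of 6 general epithelium markers 1 rose and 1 fell in Apc, with Krt18, a keratin of simple epithelia, at 1.11 (adjusted p = 1.3e-05) and Vil1, a protein of the brush border, at -1.26 (adjusted p = 8.7e-06). The other 4 passed the adjusted p but not the fold threshold, among them the adhesion molecule Epcam at -0.18 on the log2 scale of counts, with 346 ± 18.3 FPKM in WT (SD, n = 5) and 369 ± 17.7 in Apc (SD, n = 4). The summed FPKM of 10 enterocyte markers was 3501 to 9836 in WT, 2442 to 5634 in P-Rspo3 and 51.8 to 77.5 in Apc, and all 10 fell in Apc, with Apoa4 changing by -12.46, Apoa1 by -10.84 and Fabp1, the most abundant in WT and P-Rspo3, by -10.46. In Apc the most abundant was Fabp2, at a mean of 31.9 FPKM. All 6 goblet cell markers fell, led by Zg16 (-9.01), Clca1 (-5.83) and Muc2 (-5.11), as did 5 of 7 Paneth cell markers, led by Defa24 (-4.47), Defa17 (-4.34) and Itln1 (-3.81), while Mmp7 rose (1.74). Of 6 stem cell markers 4 rose and 1 fell, with Olfm4 at -9.78, Axin2 at 1.97 and Ascl2 at 1.54. The part of these differences in the rise of the IFITM genes and in the fall of other interferon-stimulated genes was not tested.

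Leukocyte markers summed to 2.89 to 4.22 FPKM in WT and 7.399 to 11.5 in Apc over 16 genes. Itgam was the most abundant of them in WT and Cd68 in Apc, and 9, including Cd3e, Adgre1 and Tyrobp, had at most 3 counts in every grouped library. Of the 5 tested, 2 rose and 3 fell in Apc, with a median log2 fold change of -1.66. Cd68 was at 2.55 and Laptm5 at 3.67, and Csf1r was at -3.92, Itgam at -2.54 and Lyz2 at -1.66. Stroma and endothelium markers summed to 0.399 to 0.514 FPKM in WT and 1.36 to 2.35 in Apc over 10 genes, of which 5, Col1a2, Col3a1, Dcn, Lum and Kdr, had at most 3 counts in every library. Of the 4 tested, 2 rose and 2 fell. Cdh5, the most abundant in Apc, was listed at 0 in each WT library and at 1.13 to 1.89 FPKM in Apc, Pdgfra rose by 4.504, and Pdgfrb was at -3.63 and Pecam1 at -2.95. The part of these transcripts in the results was not tested.

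In P-Rspo3 organoids the members were compared with WT in the same way. Of 34 members tested none was called higher and none lower by edgeR, beside 0.00625% of 15992 genes called higher, which was Rspo3 alone, and 0% called lower. At an unadjusted p under 0.05 there were 5 members (14.7%), beside 13.5% of all genes tested, and DESeq2 and both limma fits likewise called none, with 6, 5 and 5 members at an unadjusted p under 0.05. The median log2 fold change was -0.12 over the members and 0.00 over all genes tested. The smallest adjusted p was 0.19, of Bst2 at -0.62 ± 0.18 (SE) and Sp100 at -2.32 ± 0.68 (SE). Without P-Rspo3 M, Sp100 was at -3.15 (adjusted p = 0.12). Wide standard errors stood behind several members, such as 0.78 for Oasl2 at -1.31 and 0.69 for Isg15 at -1.37, so changes of that size were not separable from the spread between libraries.

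Against P-Rspo3, which shared the EN medium, Apc again showed both directions. Of 31 members tested 3 rose and 9 fell, beside 13.4% of 16456 genes called higher and 13.3% called lower, with a median of -0.52 over the members and 0.00 over all genes tested. The 3 were Ifitm1 at 10.89 ± 0.44 (SE, adjusted p = 2e-07; 11.67 without P-Rspo3 4d), Ifitm2 at 1.70 ± 0.14 (SE, adjusted p = 1.1e-05) and Ifitm3 at 5.29 ± 0.97 (SE, adjusted p = 0.0013), and Ifitm3 without P-Rspo3 15d was at 4.88 (adjusted p = 1.6e-06). Ifit3 at -2.79, Ifit1 at -2.22, Oas1a at -2.14, Ifi27 at -2.07, Irf7 at -1.77, Mx2 at -1.58, Ifih1 at -1.42, Dhx58 at -1.13 and Parp14 at -1.01 were the 9 that fell. Ifit3 and Mx2 passed the FPKM filter through P-Rspo3, and Ifitm1 passed it through Apc. These genes could hardly have been called in the other direction, so the counts describe the members that passed and not the whole set. The fall of Parp14 was short of the fold threshold when Apc 1, Apc 2, P-Rspo3 15d or P-Rspo3 F was left out (-0.94 to -0.87), and that of Dhx58 when Apc 2 was (-0.96). Isg15 (-0.52, adjusted p = 0.38), Oasl2 (-1.28, adjusted p = 0.061) and Ifit2 (0.62, adjusted p = 0.067), called against WT, were not called here, and Sp100 was below the filter (adjusted p = 0.7 without it). Both comparisons used the same Apc libraries, so the second is not independent of the first.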

How the data were processed

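Per the submitters' notes, STAR was run against GRCm38; the authors deposited gene counts as whole numbers (HTSeq 0.6.0) and FPKM (Cufflinks 2.2.1). The annotation release and strand setting are not given in the sources used here, which leaves genes that overlap or have close copies uncertain. Members and lists were chosen with earlier results of these data known. All 39 were matched by Ensembl ID. Named are the IFITM genes, every member called against WT and, of other lists, the 3 largest called changes in Apc. Epcam, Ifnar1, Psmd13, Mmp7, Itgam, Lyz2, Pecam1 and Pitx1 were named after their values were seen, and Pgghg was also named outside this rule. Mb21d1, Mnda, Gbp5, Gbp6 and Gbp10 were not matched to the count table.

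Counts were tested with edgeR 4.0.16 (TMM, quasi-likelihood test at its defaults) in R 4.3.3, 2 groups at a time, over every gene that reached 0.1 FPKM in 4 or more libraries. Calls required a log2 fold change beyond 1 in either direction and p under 0.05 after Benjamini-Hochberg adjustment. The test was also run on simulated data, whose outcome is not reported here. SE is the absolute log2 fold change divided by the root of the F statistic. Up to 3 counts in a library is taken as not detectable, which covers counting error only. Same-numbered WT and Apc libraries were taken as the same line from their titles alone. Their deviations correlated at 0.0467 to 0.227 (median 0.109 over 4 pairs, 2 of them over 0.1, and -0.032 over 12 other pairs), and 3 of 4 Apc libraries correlated best with their own number. No pair of libraries agreed within sampling noise. The labels of 2 libraries could not be reconciled, and they joined no group. Alternatives used DESeq2 1.42.0 and limma 3.58.1, other filters, other groupings and each library left out. Gene positions are from GENCODE vM21 and promoters from RefSeq. Some genes of the lists are not reported here.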

Additional observations from a re-analysis of the deposited data

Results flagged for a closer look

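In 8 cases the FPKM of a member in 1 library lay far from the others of its group by Dixon's test, over 105 groups examined, of which chance alone would mark about 5%. Ifit1 in Apc 6 was at 0.619 against 0.186 to 0.234 in the other Apc libraries, and Ifi44 in the same library at 0.273 against 0 to 0.0395. Irf7 in P-Rspo3 F was at 14.4 against 7.23 to 8.41, and Rtp4 there at 0.768 against 0.201 to 0.284. Zbp1 in P-Rspo3 15d was at 0.138 against 0.0721 to 0.0764. Eif2ak2 in P-Rspo3 M was at 9.53 against 11.4 to 11.5. Cmpk2 in WT naive was at 1.04 against 0.716 to 0.803, and Lgals3bp in WT 1 was at 155 against 122 to 131.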

How the results depend on the processing

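Across 513 alternative fits of the 29 gene values named here, 468 kept their direction and their side of the thresholds, 40 kept the direction but no longer passed, and 5 reversed. The 3 IFITM genes were called higher in Apc than in WT under every alternative run. Of the 11 members called lower in Apc than in WT, 2 were called with limma on log2(FPKM + 1) and 6 with limma on log2(FPKM + 0.1), which is 5.88% and 17.6% of members tested beside 6.76% and 10.3% of all genes. With 1 FPKM added, Ifit3 and Sp100 were too low in WT to reach the fold threshold. Against P-Rspo3, 2 members and not 9 were called lower with limma on log2(FPKM + 1) (6.45%, beside 6.83% of all genes), and the 3 called higher became 5 with limma on log2(FPKM + 0.1) (16.1%, beside 15.8% of all genes) and 7 by the adjusted p alone (22.6%, beside 28.7%). Apart from that limit on Ifit3 and Sp100, the cause was not tested. Leaving out 1 library at a time gave 3 to 5 members higher and 9 to 12 lower in Apc than in WT, 0 in either direction in P-Rspo3 against WT, and 3 to 4 higher and 7 to 11 lower in Apc than in P-Rspo3. Over all genes these fits called 11.5% to 12.5% higher and 13.2% to 14.5% lower, then 0.00609% to 1.05% and 0% to 0.635%, then 12.7% to 14.5% and 12.4% to 13.6%.

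With a replicate block for the line number, fitted on 4 WT and 4 Apc libraries, 5 members were higher and 8 lower in Apc, beside 12.0% and 13.6% of all genes, since Zbp1 passed and Ifit1, Oasl2 and Isg15 did not, and the block changed no other call among the members. The reversed values are all in P-Rspo3 against WT, where no member was called. Ifitm1, at 0.06, ran from -0.7383 (without P-Rspo3 4d) to 0.47 (without P-Rspo3 M) as single libraries were left out, and was also below 0 without WT 5 (-0.19), without WT naive, the same fit as WT of the flox lines only (-0.08403), and with limma on log2(FPKM + 0.1) (-0.06815). Ifitm2, at -0.12, was at 0.0001361 without P-Rspo3 F. Over all genes the number called in P-Rspo3 varied with the method, from 1 higher and 0 lower by edgeR to 55 and 173 by DESeq2, and to 166 and 100 by edgeR without the naive culture. Without the FPKM filter, all 39 members were tested, Gbp2 was also called higher in Apc than in WT and Oas2 also lower in Apc than in P-Rspo3, both at no more than 8 counts in any grouped library.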

Other observations

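Values of 2 libraries whose labels could not be reconciled stand outside the groups. The library titled LIPO is labelled Dox naive (WT) and was grown in ENR, and the library titled NAIVE_F is labelled Ptprk-Rspo3 and was grown in EN. Rspo3 was listed at 0 FPKM in LIPO and at 8.54 in NAIVE_F. Ifitm1 was at 0.237 FPKM in LIPO and 0.129 in NAIVE_F, Ifitm2 at 144 and 176, and Ifitm3 at 32.7 and 33.1. Both Ifitm3 values lie below the WT range of 41.9 to 77.2 and within the 24.4 to 42.1 of the P-Rspo3 libraries other than 15d. Isg15 was at 0.790 and 0.189 FPKM, Irf7 at 9.32 and 5.12, and Ifi27 at 4.96 and 6.59, below all 4 P-Rspo3 libraries.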
